A study of Bos taurus with 6 samples.

Results

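The genes described here are the ligands and receptors of the tumour necrosis factor (TNF) family together with the TRAF adaptors, the cIAP ligases, the NF-kB subunits and their inhibitors. They were chosen by symbol, with earlier results of these data known: every gene of the authors' table whose symbol begins with TNFSF or TNFRSF, other than TNFRSF11B, and 24 named genes, which gave 51 of 27607 genes. Their messenger RNA was measured in cultured bovine articular chondrocytes taken from the deep zone, which is the part of joint cartilage next to the bone, after infection with a lentivirus that carries bovine CREB5 under the control of doxycycline. CREB5 is a DNA-binding protein related to CREB and the ATF factors. All 6 libraries came from cells that had been infected in the presence of DEAE-Dextran (7.5 µg/ml), selected with G418 (500 µg/ml, 11 days) and then kept on low attachment plates for 3 days in medium with 10% FBS and a pair of growth factors, TGFb2 at 20 ng/ml together with TGFa at 100 ng/ml. The 3 Dox- libraries had no doxycycline and the 3 Dox+ libraries had it at 1 µg/ml, per the labels' treatment protocol. The design text of the series gives the dose as 1 mg/ml, so the sources disagree on it. The cells were collected from 3 knees, the libraries of both groups were numbered 1 to 3, and neither an uninfected culture nor a doxycycline control without CREB5 was among the libraries analysed here, so the effects of doxycycline and of CREB5 cannot be told apart.

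Ligands of the TNF family are mostly membrane proteins that act as trimers and bind trimeric receptors on neighbouring cells. Receptors with a death domain can start apoptosis. Receptors without one recruit TRAF adaptors and, with the cIAP ubiquitin ligases, switch on NF-kB, which is not confined to them. NF-kB is a dimer of REL family subunits that IkB proteins hold in the cytoplasm until they are degraded, and several inhibitors of the pathway are themselves NF-kB target genes. In cartilage the pathway is best known for its part in the response to inflammatory cytokines, which raises matrix proteases and lowers matrix genes. Much of its control lies in protein degradation and movement into the nucleus, which messenger RNA does not show.

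The libraries held between 20063379 (Dox+ 3) and 122366790 (Dox+ 2) reads, recovered from the authors' normalized counts, and 3 reads were worth between 1.32 and 6.98 normalized counts. CREB5 (ENSBTAG00000018909) stood at 510, 308 and 330 normalized counts in Dox- 1, 2 and 3 and at 20935, 12413 and 21964 in Dox+ 1, 2 and 3, so each library lay on the side its label gives. The 7 chondrocyte markers summed to between 71581 and 179404 in the Dox- and between 35773 and 60148 in the Dox+ libraries. All 7 had a log2 fold change below 0. In the limma tests described below, ACAN and COL9A1 were called lower (28.6%, against 0.357% of all genes tested). With the library number as a block, 4 of the 7 were called lower (57.1%, against 1.65%). Mitochondrially encoded genes held 1.71% to 2.20% of the counts in the Dox- and 2.31% to 3.20% in the Dox+ libraries. The part of either shift in the results below was not tested. In bulk RNA, fewer cells that express a gene and less RNA per cell cannot be told apart.

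Of the 51 genes, 40 had a mean of at least 10 normalized counts over the 6 libraries and were tested. In limma on log2(normalized count + 1), with Benjamini-Hochberg adjustment over all 13180 genes tested and a threshold of 0.05, 1 member was higher in Dox+ cells, TNFRSF9, and 0 were lower. Over all genes tested, 2.52% were called higher and 0.357% lower, so 1 of 40 members is a share near the background. Without adjustment, TNFRSF9, BIRC2, REL and RELA had a limma p under 0.05, and these 4 are 10.0% of those tested against 10.6% of all genes tested. A limma fit that took the library number as a block also called 1 member higher (4.86% of all genes tested) and 0 lower (1.65%), while the count over all genes moved from 332 to 640 higher and from 47 to 218 lower. On the recovered reads, edgeR called 2.31% of all genes tested higher and 0.296% lower, DESeq2 4.12% and 1.21%, and edgeR with the block 4.48% and 1.44%, and each of these called TNFRSF9 higher and no member lower. Among the members 20 had a log2 fold change above 0 and 20 below, and the median size of the change was 0.24 in either direction, as it was over all genes tested (0.24). The 95% interval of the change lay between -1 and 1 on the log2 scale for 19 of the 40 members, and for 26 with the block. For those genes a change of 2-fold or more lay outside the interval, and for the others it lay inside it.

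**Figure D1:**
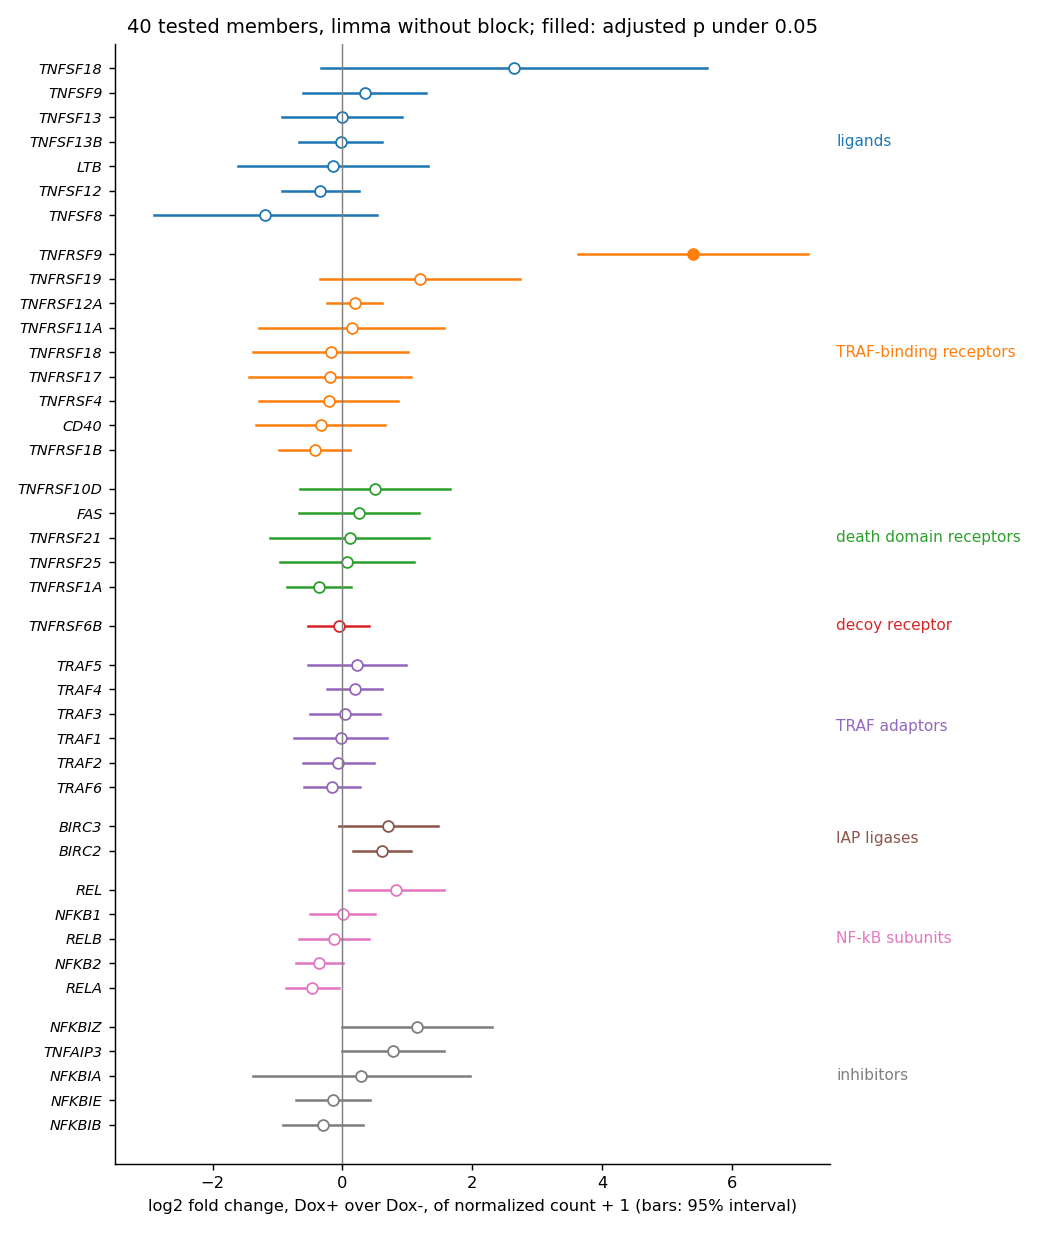
The log2 fold change of each of the 40 tested members (Dox+ over Dox-, log2 scale of normalized count + 1, horizontal axis) with its 95% interval from limma without the block, grouped by role, with filled circles for an adjusted p under 0.05. TNFRSF9, at 5.39, is the 1 filled circle, and most of the other genes lie close to 0.

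TNFRSF9 (ENSBTAG00000003313) encodes 4-1BB, also called CD137, a costimulatory receptor best known from activated T cells and natural killer cells. It had 0 reads in each Dox- library and 35, 45 and 25 reads in Dox+ 1, 2 and 3. As normalized counts these were 59.2, 19.9 and 58.1 in Dox+ 1, 2 and 3. All 3 Dox+ libraries thus held the transcript, all above the 3 reads taken as the floor, and the groups did not overlap. The lowest of the 3, Dox+ 2, was also the deepest library and the one with the lowest CREB5 level.

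With each Dox- library put at its floor of 3 reads (a mean of 2.70 normalized counts), the Dox+ mean of 45.7 ± 22.4 normalized counts (SD, n = 3) was at least 16.9-fold higher. The limma estimate was a log2 fold change of 5.39 with an SE of 0.78 (adjusted p = 0.0068 without the block and 0.0014 with it), on a scale where the added 1 sets the size of the change, since the Dox- group was at 0. TNFRSF9 was in the test because of its Dox+ values. Without a filter on low values it was also called (limma adjusted p = 0.0019), from the same values, so this is no independent support. As the Dox- values were all 0, the spread within the groups came from the Dox+ libraries alone. Over the 18 alternatives the adjusted p ranged from 4.8e-08 to 0.060. The call was lost when Dox+ 3 was left out (limma adjusted p = 0.060). The authors' deposited table gave TNFRSF9 an adjusted p of 6.8e-07.

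As TNFRSF9 is a receptor of lymphocytes, markers of leukocytes are given beside it. Of 11 leukocyte and macrophage markers, MS4A1 and ITGAM had 0 reads in all libraries. PTPRC, which encodes the CD45 antigen of all leukocytes, was at 1.84, 0 and 0 normalized counts in Dox- 1, 2 and 3 and at 0, 0 and 2.33 in Dox+ 1, 2 and 3. CD3E, a chain of the T cell receptor complex, was at 1.84, 1.48 and 6.73 in Dox- 1, 2 and 3 and at 0, 6.62 and 0 in Dox+ 1, 2 and 3. Other markers of the list were highest in Dox+ 1: CD68 at 582 and CSF1R at 32.2 normalized counts there were the highest of the 6 libraries, and AIF1, at 5.08, had reads in that library alone. TYROBP was at 32.5 in Dox- 1 and 23.7 in Dox+ 1 and at 0 in the other 4 libraries. The part of leukocyte RNA in the TNFRSF9 values was not tested. The summed level of the list was 207 to 497 in the Dox- and 384 to 738 in the Dox+ libraries, mostly from CD68 and CD14, and 0 of its 3 tested members were called (0 at an unadjusted limma p under 0.05).

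The partners of TNFRSF9 did not pass. TNFSF9, which encodes its ligand 4-1BBL, stood at 295, 393 and 297 normalized counts in Dox- 1, 2 and 3 and at 228, 780 and 393 in Dox+ 1, 2 and 3. Dox+ 2 was the highest of the 6 libraries, whereas Dox+ 1 was below all Dox- libraries. Its log2 fold change was 0.34, with a 95% interval from -0.61 to 1.29 (limma adjusted p = 0.88). TRAF1, TRAF2 and TRAF3, the adaptors known to bind the tail of 4-1BB, had log2 fold changes of -0.03, -0.06 and 0.03.

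**Figure D2:**
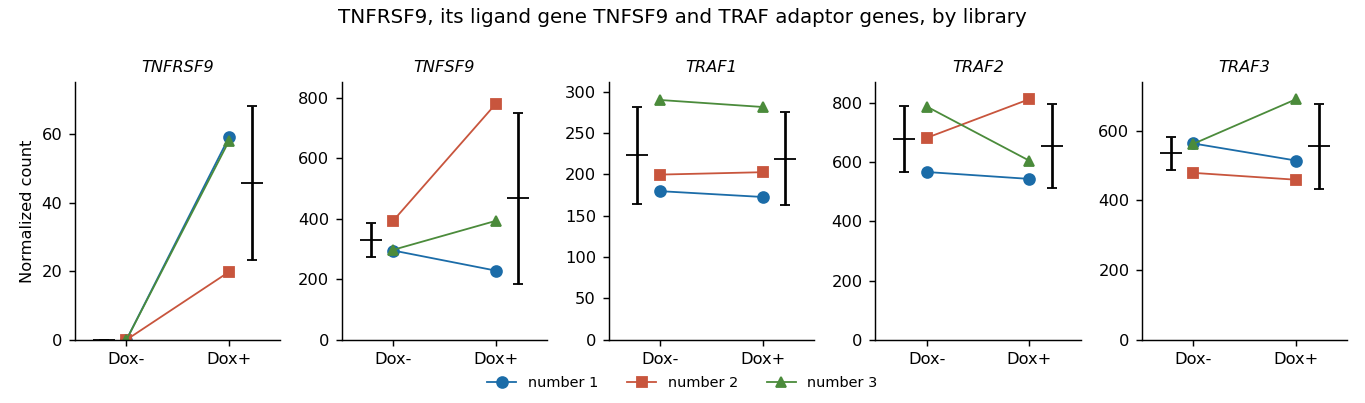
Normalized counts (vertical axes, each from 0) of TNFRSF9, of its ligand gene TNFSF9 and of 3 TRAF genes in the Dox- and Dox+ libraries, with lines joining libraries of the same number and black bars for mean ± SD (n = 3). TNFRSF9 is at 0 in all Dox- libraries and between 19.9 and 59.2 in the Dox+ libraries, while the groups of the other 4 genes overlap.

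Of the 13 ligand genes, 7 were tested and 0 were called (0 at an unadjusted limma p under 0.05). TNFSF18 encodes the ligand of GITR and had the widest interval of all tested members. Its normalized counts were 22.7, 4.44 and 0 in Dox- 1, 2 and 3 against 91.4, 5.74 and 48.8 in Dox+ 1, 2 and 3. Each Dox+ library was above the Dox- library of its number, but Dox- 1 was above Dox+ 2, so the groups overlapped. The log2 fold change was 2.64 (95% interval -0.33 to 5.61, limma adjusted p = 0.57 without and 0.15 with the block). It rested on single libraries, at 1.47 without Dox- 3, 1.86 without Dox+ 1 and 3.75 both without Dox- 1 and without Dox+ 2. Its receptor gene TNFRSF18 was at 37.7 ± 16 in Dox- and 33.6 ± 15.7 in Dox+ cells (SD, n = 3, log2 fold change -0.18, limma adjusted p = 0.96).

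TNFSF8, which encodes the ligand of CD30, was the only ligand whose groups did not overlap. It was at 22.7, 31.1 and 19.0 normalized counts in Dox- 1, 2 and 3 and at 16.9, 2.65 and 18.6 in Dox+ 1, 2 and 3. All Dox+ values were below all Dox- values, the highest of the former by less than 1 normalized count, and the limma adjusted p was 0.73. TNFSF12, which encodes TWEAK, was at 1114, 1665 and 1203 in Dox- 1, 2 and 3 and at 848, 1427 and 909 in Dox+ 1, 2 and 3. It was lower in each same-numbered pair and number 2 was the highest in both groups, with a log2 fold change of -0.34 (limma adjusted p = 0.81).

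TNFRSF12A encodes Fn14, the receptor of TWEAK, and was at 6212 ± 1131 in Dox- and 7006 ± 340 in Dox+ cells (SD, n = 3). Its log2 fold change was 0.19, with a 95% interval from -0.24 to 0.61. TNFSF13B, which encodes the B cell factor BAFF, was at 372 ± 6.55 and 377 ± 109, and TNFSF13, which encodes APRIL, at 171 ± 39.1 and 183 ± 101 in Dox- and Dox+ cells (SD, n = 3). Their log2 fold changes were -0.03 and -0.01, and both turned to values above 0 in edgeR and DESeq2, as given in the closing part. LTB, which encodes lymphotoxin beta, was between 6.77 and 21.2 in the 6 libraries and was not called. In RefSeq's table of another assembly, ARS-UCD2.0, TNFSF12 and TNFSF13 overlap the same locus and LTB overlaps LST1. The division of reads between these genes is therefore uncertain.

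The other 6 ligand genes were under the filter. TNF itself had 0 reads in all 6 libraries. The ligand of RANK, TNFSF11, which drives the formation of osteoclasts, had 2 reads, both in Dox- 1. TNFSF4, which encodes the ligand of OX40, had 1 read, and TNFSF10, which encodes TRAIL, had 0 reads in Dox- and 5 in Dox+ cells. TNFSF14, which encodes LIGHT, had 16 reads in each group. TNFSF15, which encodes TL1A, had 39 reads in Dox- and 27 in Dox+ cells. These counts do not allow a comparison of the groups, and 0 reads limit a level only to under the worth of 3 reads in each library.

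Among the 13 receptors that bind TRAF adaptors without a death domain, 9 were tested and TNFRSF9 was the 1 called. TNFRSF1B, which encodes the second TNF receptor, was at 1069, 627 and 862 normalized counts in Dox- 1, 2 and 3 and at 599, 584 and 674 in Dox+ 1, 2 and 3. It was lower in each same-numbered pair, yet Dox+ 3 was above Dox- 2, and the log2 fold change was -0.43 (95% interval -0.98 to 0.12, limma adjusted p = 0.66). TNFRSF19, which encodes TROY, was at 66.8, 23.7 and 9.78 in Dox- 1, 2 and 3 and at 59.2, 83.4 and 41.9 in Dox+ 1, 2 and 3. It was higher in 2 of 3 pairs, with a log2 fold change of 1.2 (95% interval -0.34 to 2.74, limma adjusted p = 0.66).

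CD40, the receptor through which T cells activate B cells and macrophages, was at 62.3 ± 17.6 in Dox- and 49.3 ± 14.6 in Dox+ cells, and TNFRSF4, which encodes OX40, at 226 ± 99.9 and 195 ± 83.6 (SD, n = 3). TNFRSF11A, which encodes the receptor RANK, lay between 7.97 and 15.9 in the 6 libraries, with number 2 the highest in both groups. TNFRSF17, which encodes the B cell receptor BCMA, lay between 16.9 and 54.4. In RefSeq's table it overlaps GSPT1, and TNFRSF12A overlaps CLDN6, so the division of reads between these genes is uncertain. Other members, among them TRAF3, FAS and NFKB1, also overlap other loci there. Overlap of exons and strand were not examined. CD40, TNFRSF4, TNFRSF11A and TNFRSF17 had limma adjusted p between 0.889 and 0.971, and TNFRSF12A 0.85. TNFRSF1B and TNFRSF8 also overlap in RefSeq's table. Of the 4 that were under the filter, EDA2R and TNFRSF13B had 0 reads, TNFRSF8 had 3, all in Dox- 3, and TNFRSF13C had 3 in Dox- and 2 in Dox+ cells.

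Of the 6 receptors with a death domain, 5 were tested and 0 were called (0 at an unadjusted limma p under 0.05). TNFRSF1A encodes the first TNF receptor, the main one on most cells. Its normalized counts were 3376, 4285 and 5162 in Dox- 1, 2 and 3 against 2758, 3792 and 3363 in Dox+ 1, 2 and 3. Each pair was lower in Dox+ and the groups overlapped, with a log2 fold change of -0.36 (95% interval -0.85 to 0.12, limma adjusted p = 0.68). FAS, the receptor of FAS ligand, was at 1105, 627 and 846 in Dox- 1, 2 and 3 and at 1097, 533 and 1700 in Dox+ 1, 2 and 3. It was higher in 1 of 3 pairs, that of number 3, and its log2 fold change was 0.25 (limma adjusted p = 0.91).

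TNFRSF10D is a member of the TRAIL receptor group, and in human it is a decoy with a shortened death domain. It was at 2708, 881 and 819 in Dox- 1, 2 and 3 and at 2838, 998 and 1958 in Dox+ 1, 2 and 3. TNFRSF21, which encodes death receptor 6, was at 979, 271 and 567 in Dox- 1, 2 and 3 and at 1051, 308 and 581 in Dox+ 1, 2 and 3. For both genes number 1 was the highest in either group, and each Dox+ library was slightly or clearly above the Dox- library of its number. TNFRSF25, which encodes death receptor 3, was at 54.0 ± 22.6 and 55.4 ± 15.8 in Dox- and Dox+ cells (SD, n = 3). NGFR, the low affinity neurotrophin receptor, was under the filter, with 16, 5 and 10 reads in Dox- 1, 2 and 3 against 0, 44 and 0 in Dox+ 1, 2 and 3. TNFRSF6B, a soluble decoy receptor that in human binds FAS ligand, LIGHT and TL1A, was at 1222 ± 57.7 and 1188 ± 226 (SD, n = 3, log2 fold change -0.06, 95% interval -0.52 to 0.41).

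All 6 TRAF genes were tested and 0 were called, also at an unadjusted limma p under 0.05. Their log2 fold changes ranged from -0.16 (TRAF6) to 0.22 (TRAF5), and the 95% interval of each lay between -1 and 1. TRAF1 was at 180, 200 and 290 normalized counts in Dox- 1, 2 and 3 and at 173, 203 and 281 in Dox+ 1, 2 and 3. The 3 numbers kept their order and nearly their level. TRAF3, which restrains the noncanonical NF-kB kinase, was at 535 ± 48.4 and 555 ± 121, and TRAF6, the adaptor of interleukin 1 and Toll-like receptors, at 1374 ± 127 and 1235 ± 158 (SD, n = 3). TRAF2 was at 679 ± 111 and 653 ± 141, TRAF4 at 1720 ± 251 and 1948 ± 180, and TRAF5 at 126 ± 35.6 and 143 ± 17.1 in Dox- and Dox+ cells (SD, n = 3).

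BIRC2 and BIRC3 encode cIAP1 and cIAP2, the ubiquitin ligases that work with TRAF2, and are neighbouring genes in RefSeq's table. BIRC2 was at 1814, 1371 and 1600 normalized counts in Dox- 1, 2 and 3 and at 2674, 2016 and 2628 in Dox+ 1, 2 and 3. All Dox+ libraries were above all Dox- libraries, and the numbers kept their order. The log2 fold change was 0.61 (SE 0.20, 95% interval 0.16 to 1.06), with an unadjusted p of 0.014 and a limma adjusted p of 0.23, and 0.072 with the block. DESeq2 with the block called it (adjusted p = 0.032), and the authors' deposited table gave an adjusted p of 0.048. BIRC3 was at 2217, 1408 and 833 in Dox- 1, 2 and 3 and at 2757, 2019 and 2021 in Dox+ 1, 2 and 3. Each pair was higher in Dox+ but Dox- 1 was above Dox+ 2 and 3, and the limma adjusted p was 0.54, or 0.11 with the block.

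The 5 NF-kB subunit genes were all tested and 0 were called, while 2 of them, REL and RELA, had an unadjusted limma p under 0.05. REL, which encodes the c-Rel subunit, was at 117, 195 and 116 normalized counts in Dox- 1, 2 and 3 and at 281, 266 and 200 in Dox+ 1, 2 and 3. The groups did not overlap, though Dox+ 3 was close above Dox- 2. Its log2 fold change was 0.83 (SE 0.32, 95% interval 0.10 to 1.56, limma adjusted p = 0.36 without and 0.14 with the block). RELA, which encodes p65, the activating subunit of the common dimer, was at 4696, 4549 and 6202 in Dox- 1, 2 and 3 and at 3841, 3498 and 3774 in Dox+ 1, 2 and 3. All Dox+ libraries were below all Dox- libraries, with a log2 fold change of -0.46 (SE 0.18, 95% interval -0.87 to -0.05, limma adjusted p = 0.37 without and 0.20 with the block).

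NFKB2, which encodes the p100 precursor of the noncanonical subunit p52, was at 4071, 4370 and 3936 in Dox- 1, 2 and 3 and at 3459, 3248 and 2970 in Dox+ 1, 2 and 3. Its groups did not overlap either, and its log2 fold change was -0.36 (95% interval -0.72 to 0.01, limma adjusted p = 0.49). RELB, the partner of p52, was at 726 ± 79.0 and 673 ± 169, and NFKB1, which encodes p105 and p50, at 833 ± 88.6 and 841 ± 155 in Dox- and Dox+ cells (SD, n = 3). The log2 fold change of NFKB1 was 0.00, with a 95% interval from -0.50 to 0.50.

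Over all 40 tested members, the groups did not overlap for 4 genes that were higher in Dox+, TNFRSF9, BIRC2, REL and NFKBIZ, and for 3 that were lower, RELA, NFKB2 and TNFSF8. These are 10.0% and 7.50% of the tested members, and over all genes tested the same held for 8.88% and 6.29%. All 3 same-numbered pairs were higher for 10 members and lower for another 10, which is 25.0% each, against 19.5% and 19.0% of all genes tested.

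Of the inhibitors, all 5 were tested and 0 were called (0 at an unadjusted limma p under 0.05). With the block 2 of the 5 had an unadjusted p under 0.05, as did 22.5% of the tested members and 16.2% of all genes tested. NFKBIZ encodes IkB-zeta, a nuclear protein of the IkB family that is known to help NF-kB switch on a subset of its targets. It was at 1522, 1942 and 409 normalized counts in Dox- 1, 2 and 3 and at 2791, 2188 and 2158 in Dox+ 1, 2 and 3. All Dox+ libraries were above all Dox- libraries, and the low value of Dox- 3 set the size of the difference: the log2 fold change was 1.15 with all libraries (SE 0.51, limma adjusted p = 0.47 without and 0.099 with the block) and 0.46 without Dox- 3. DESeq2 with the block called it (adjusted p = 0.018) and the authors' deposited table gave an adjusted p of 0.012. With TNFRSF9 and BIRC2 it was 1 of 3 members that passed in both: the deposited table had 5.24% of its 14664 genes with an adjusted p called higher and 2.05% lower, against 3 and 0 of 43 members. In DESeq2 with the block 5.64% of all genes tested were called higher and 2.32% lower.

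NFKBIA encodes IkB-alpha, the classical inhibitor and an early NF-kB target. It was at 1063, 3164 and 643 in Dox- 1, 2 and 3 and at 988, 4869 and 821 in Dox+ 1, 2 and 3. The libraries numbered 2 were the highest in both groups by a wide margin, and the log2 fold change was 0.29 (95% interval -1.38 to 1.96, and -0.16 to 0.74 with the block, limma adjusted p = 0.95 and 0.56). TNFAIP3, which encodes the ubiquitin editing enzyme A20, was at 406, 194 and 175 in Dox- 1, 2 and 3 and at 388, 389 and 463 in Dox+ 1, 2 and 3. It was higher in 2 of 3 pairs, since Dox- 1 was as high as the Dox+ libraries, with a log2 fold change of 0.78 (95% interval -0.01 to 1.56, limma adjusted p = 0.48). NFKBIB and NFKBIE, further cytoplasmic IkB genes, were at 505 ± 90.4 and 315 ± 37.6 in Dox- and at 414 ± 110 and 287 ± 44.8 in Dox+ cells (SD, n = 3), and both were lower in all 3 pairs without passing the test.

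**Figure D3:**
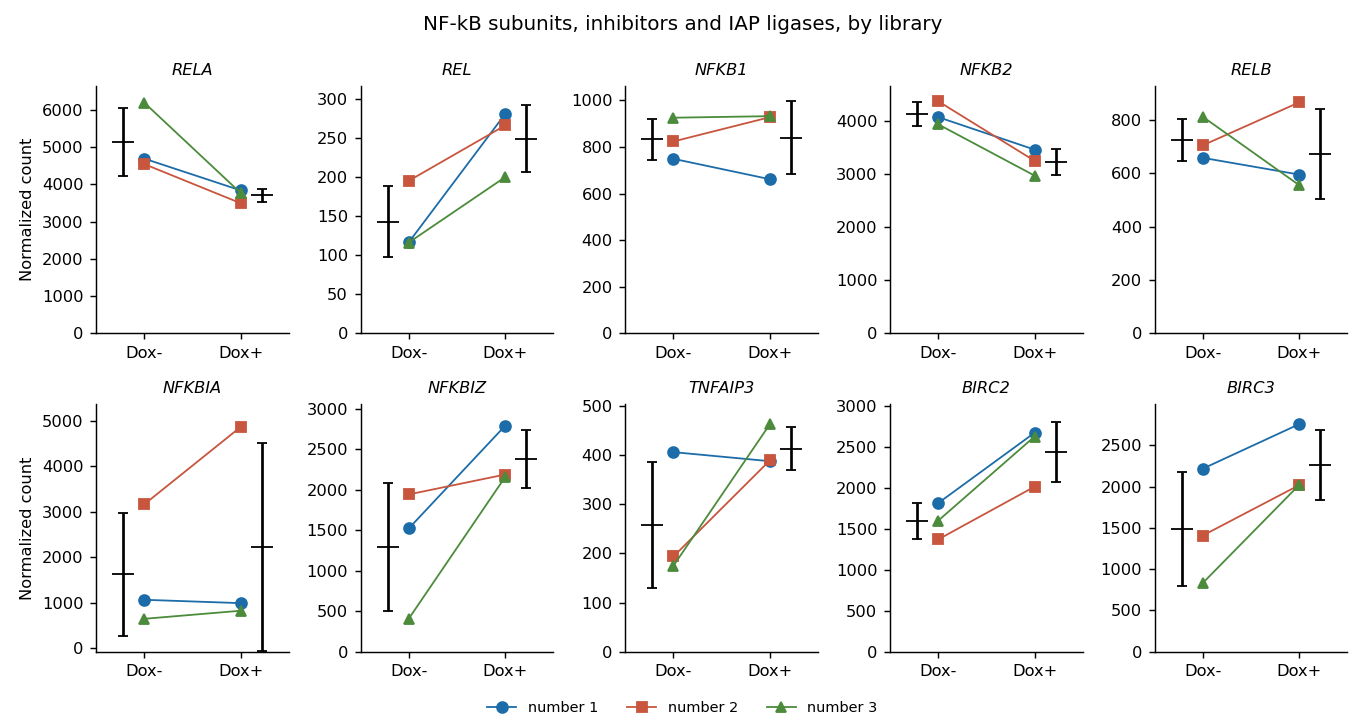
Normalized counts (vertical axes) of the 5 NF-kB subunit genes, 3 inhibitor genes and both cIAP genes in the Dox- and Dox+ libraries, with lines joining libraries of the same number and black bars for mean ± SD (n = 3). REL, NFKBIZ and BIRC2 are higher and RELA and NFKB2 lower in all Dox+ libraries than in all Dox- libraries, and NFKBIA is highest in the libraries numbered 2 of both groups.

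In most members the number of the library held a larger share of the spread than doxycycline did. The number splits the libraries into 3 sets and doxycycline into 2, which by itself favours a larger share for the number. The shares therefore do not show that the number mattered more. When the sum of squares of log2(normalized count + 1) was divided into number, group and rest, the number held more than the group in 30 of 40 members (75.0%), as it did in 72.1% of all genes tested. The median share of the number was 63.8% over the members and 49.3% over all genes tested, and that of the group was 15.5% and 15.3%. The number held 99.5% for TRAF1, 99.3% for TNFRSF21, 96.2% for NFKBIA and 94.7% for TNFRSF11A. The group held 96.6% for TNFRSF9, 84.0% for NFKB2, 75.0% for BIRC2, 70.9% for RELA and 67.1% for REL. The order of the 3 numbers was the same in both groups for 11 members (27.5%), against 25.0% of all genes tested. These shares describe 6 libraries and carry no test.

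**Figure D4:**
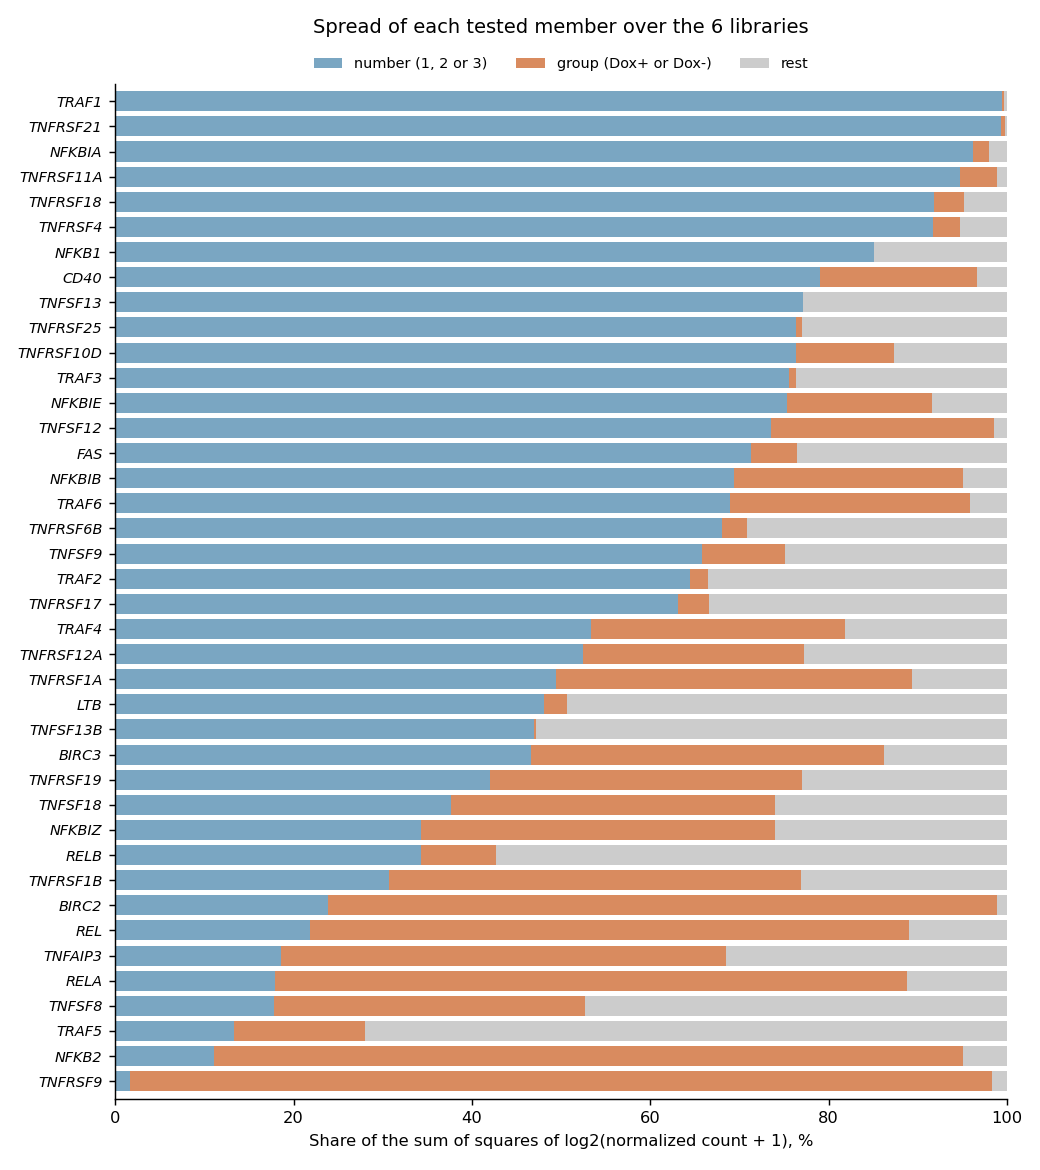
Share (%) of each tested member's sum of squares over the 6 libraries, on the scale of log2(normalized count + 1), that lies between the numbers (blue), between the groups (orange) and in the rest (grey). TRAF1, TNFRSF21 and NFKBIA are almost all blue, and TNFRSF9, NFKB2 and BIRC2 mostly orange.

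Other genes of the pathway were read from a list of 44 signalling partners, among them kinases, death domain adaptors, caspases and ubiquitin enzymes. Of 39 tested, 0 were called in limma, with or without the block, and 0 in edgeR and DESeq2, while 2 had an unadjusted limma p under 0.05 (5.13%, against 10.6% of all genes tested). These were NKIRAS2, which encodes an inhibitor of IkB degradation, and MAP3K14, which encodes the noncanonical kinase NIK. MAP3K14 was at 540, 580 and 888 normalized counts in Dox- 1, 2 and 3 and at 350, 461 and 421 in Dox+ 1, 2 and 3. All Dox+ libraries were below all Dox- libraries (log2 fold change -0.68, limma adjusted p = 0.36). NKIRAS2 was at 2132 ± 80.7 and 1559 ± 170, LTBR, the lymphotoxin beta receptor, at 2691 ± 445 and 2119 ± 219, and TAB1, a partner of the kinase TAK1, at 1555 ± 118 and 1265 ± 189 in Dox- and Dox+ cells (SD, n = 3). The median log2 fold change of the 39 genes was 0.02, against -0.00 over all genes tested.

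Of a list of 40 genes known as NF-kB targets in other cells, 28 were tested, and 3 rose and 1 fell (10.7% and 3.57%, against 2.52% and 0.357% of all genes tested). The fit with the block called 5 of them higher and 4 lower (17.9% and 14.3%, against 4.86% and 1.65% of all genes tested). The median size of the change was 1.02 on the log2 scale, against 0.24 over all genes tested, and the median change was 0.34. The median SE was also larger, at 0.52 against 0.28 over all genes tested. The list was chosen with earlier results of these data known, so these contrasts with all genes are no test of the list. It holds inflammatory genes that many other pathways also control.

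CD83, a surface protein of mature dendritic cells, rose from 23.9, 32.5 and 11.6 normalized counts in Dox- 1, 2 and 3 to 1142, 876 and 877 in Dox+ 1, 2 and 3. The Dox+ libraries stood close together and far above the Dox- libraries (43.7-fold on the fitted scale, limma adjusted p = 0.00019, and at most 0.0044 over the alternatives). MMP3, the matrix protease stromelysin 1, rose from 1448, 214 and 177 in Dox- 1, 2 and 3 to 29990, 6416 and 10178 in Dox+ 1, 2 and 3. Number 1 was the highest in both groups (32.8-fold, limma adjusted p = 0.011). The log2 fold change of MMP3 was 5.03, and it was 5.996 without Dox- 1 and 4.40 without Dox+ 1. The call of MMP3 was lost without Dox- 3 (adjusted p = 0.0502) or Dox+ 3 (adjusted p = 0.068).

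CXCL5, a chemokine that attracts neutrophils, rose from 28.2, 16.3 and 0 in Dox- 1, 2 and 3 to 690, 173 and 386 in Dox+ 1, 2 and 3 (45.2-fold, limma adjusted p = 0.041 without and 0.0023 with the block). Its log2 fold change was 5.50, and it was 4.003 without Dox- 3, where it had 0 reads, 6.44 without Dox- 1, 4.58 with a pseudocount of 5 and 4.81 in both edgeR and DESeq2. It was no longer called without Dox- 2, Dox+ 1, Dox+ 2 or Dox+ 3 (adjusted p = 0.067, 0.15, 0.054 and 0.20), in edgeR (0.057), with a pseudocount of 0.5 (0.067) or without the filter (0.0503). PTGES, the prostaglandin E synthase, fell from 9575, 11231 and 20668 in Dox- 1, 2 and 3 to 4989, 4887 and 3542 in Dox+ 1, 2 and 3. The groups did not overlap (2.95-fold lower, limma adjusted p = 0.024), and the call was lost without Dox- 2, Dox+ 1 or Dox+ 3 (adjusted p = 0.059, 0.062 and 0.15).

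IL6, the cytokine interleukin 6, is given because it was called with the block, and it was at 1074, 300.2 and 960 in Dox- 1, 2 and 3 and at 196, 96.7 and 226 in Dox+ 1, 2 and 3. All Dox+ libraries were below all Dox- libraries, with a log2 fold change of -2.05 (limma adjusted p = 0.097 without and 0.00071 with the block). In limma with the block VCAM1 (adjusted p = 0.0011) and MMP1 (0.0043) were also called higher and SOD2 (0.0092) and SAA3 (0.012) lower. IL1A and IL1B, which encode the interleukin 1 cytokines, had a mean of 0.39 and 0.41 normalized counts over the 6 libraries, and CSF2 and BCL2A1 had 0 reads.

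**Figure D5:**
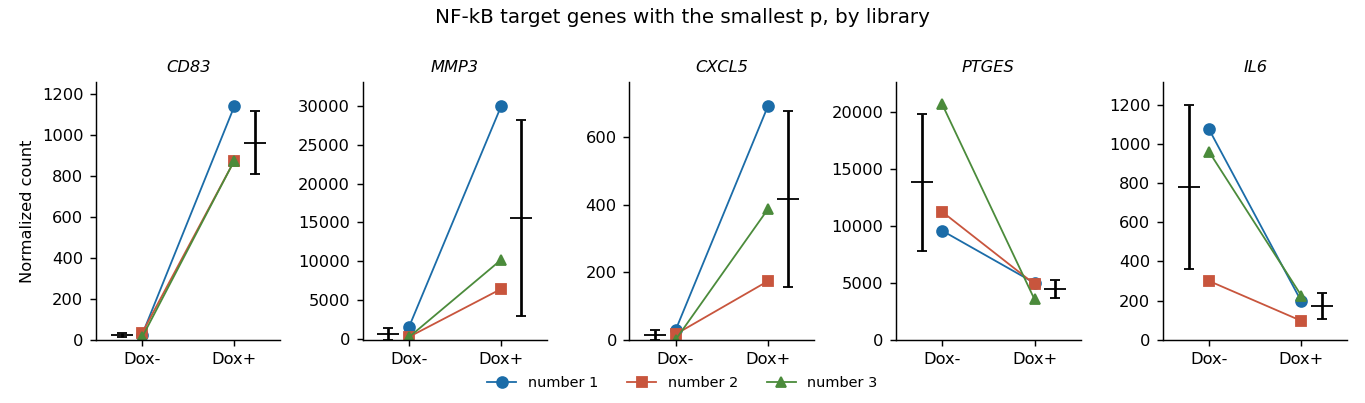
Normalized counts (vertical axes) of the 5 NF-kB target genes with the smallest p in the Dox- and Dox+ libraries, with lines joining libraries of the same number and black bars for mean ± SD (n = 3). CD83, MMP3 and CXCL5 are higher and PTGES and IL6 lower in all Dox+ libraries than in all Dox- libraries.

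Markers of other cells that make or receive TNF family ligands differed in level. Of 6 osteoclast markers OCSTAMP and CALCR had 0 reads, and of 7 endothelial markers CLDN5 had 0 reads and CDH5 and EMCN had reads in 1 library each. TEK, VWF and PECAM1 had reads in all 6 libraries, at 63.6 to 171, 23.7 to 77.8 and 11.6 to 101 normalized counts. The summed level of the endothelial list was 131 to 294 in the Dox- and 153 to 225 in the Dox+ libraries. That of the 6 synovial fibroblast markers was far higher, at 102268 to 125779 and 68426 to 77995, almost all from THY1, PDPN and PDGFRA. The others of that list were low in all libraries. CD34 lay between 2.96 and 10.2 normalized counts, DPP4 between 0 and 12.3 and CD55 between 4.41 and 75.4. The sum of the 5 osteoblast markers was 648 to 1862 and 268 to 1256, mostly from SP7. PHEX, under the filter, was at 1.84, 4.44 and 0 in Dox- 1, 2 and 3. In Dox+ 1, 2 and 3 it was at 23.7, 2.65 and 23.3. The 6 osteoclast markers summed to 6177 to 7880 and 2863 to 5406, almost all from ITGB3, so the sum shows little of the others. ACP5 was at 68.7, 45.8 and 120 in Dox- 1, 2 and 3. In Dox+ 1, 2 and 3 it was at 99.8, 155 and 133. Of the 3 osteoclast markers tested, 1 had a log2 fold change above 0 and 2 below. None of the markers in these 4 lists was called in limma without the block, while ITGB3, THY1, PDPN and CD55 had an unadjusted p under 0.05. With the block ITGB3, SP7 and THY1 were called lower. The part of these shifts in the members' values was not tested.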

How the data were processed

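RNA was extracted with Trizol and libraries were made with the KAPA mRNA HyperPrep kit, per the labels' protocols. The deposited table holds a normalized signal per gene, which is the authors' gene count divided by 1 size factor per library. The submitters' processing notes name STAR 2.5.2b, Salmon, DESeq2, FastQC 0.11.3 and MultiQC 1.2 and give bosTau9 and ARS-UCD1.2 as builds, with no role for any. No source used here states the strand setting, so it is uncertain how reads of overlapping and antisense genes were divided. The authors' deposited comparison table gives, per gene, a log2 fold change with a raw and an adjusted p-value, of which only the adjusted p is quoted.

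In each library 100% of values above 0 were whole multiples of 1 step within 0.01 read, so reads were recovered. They numbered 20063379 to 122366790 per library. Floors of 3 reads cover counting error only. The intervals of the log2 fold changes came from the limma fits and rest on the residual spread between libraries. The main test was limma 3.58.1 in R 4.3.3 (two-sided, moderated with a mean trend) of log2(normalized count + 1) on group alone, in genes with a mean of at least 10. Alternatives were edgeR 4.0.16 (quasi-likelihood, TMM) and DESeq2 1.42.0 on the recovered reads, TMM scaling, other pseudocounts, no filter, the replicate number as a block and leaving out libraries. Only the limma fit on group alone was tried on simulated counts. Those counts held no effect of the library number, so they differ from these libraries in that.

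The numbers were taken to pair the libraries because the deviations of same-numbered libraries from their group means correlated at 0.65, 0.44 and 0.21 for numbers 1, 2 and 3, over 13180 genes. Those of differently numbered libraries correlated at -0.59 to 0.18. The highest of these, Dox- 3 with Dox+ 2, was close to the value of number 3, so the pairing of number 3 is weak. The labels name 3 independently collected knees without tying numbers to knees. Libraries of a group differed by far more than sampling noise (chi-square per degree of freedom 57.9 to 435), so each counted as 1 replicate.

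The members and lists were chosen with earlier results of these data known. The rule for named genes allowed CREB5, all members, and of each further list the called genes or the 4 of smallest p. ACAN, COL9A1, IL6, VCAM1, MMP1, SOD2, SAA3, IL1A, IL1B, ITGB3, SP7, THY1, PDPN, CD55 and PDGFRA were named after their values were seen. So were ACP5, TEK, VWF, PECAM1, PHEX and markers with few reads. Gene names came from the authors' table. RefSeq's table (ARS-UCD2.0, another build) matched 51 of 51 members and was used for neighbouring and overlapping genes only. No sequence is printed.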

Additional observations from a re-analysis of the deposited data

How the results depend on the processing

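TNFRSF9 was called higher under every alternative except without Dox+ 3. The count of all genes called higher and lower was 332 and 47, and it was 640 and 218 with the replicate block in limma, 591 and 190 in edgeR with the block, 743 and 306 in DESeq2 with the block and 542 and 159 in DESeq2 without it. With 1 library or 1 number left out the counts ranged from 139 to 934 higher and from 9 to 537 lower. They were 139 and 9 without Dox+ 3 and 206 and 18 without Dox+ 1, and the lower count was 18, 22 and 72 without Dox- 2, Dox- 3 and Dox- 1. The members called higher numbered 3 in DESeq2 with the block and 0 to 4 with libraries left out, and those called lower 0 throughout. Of the NF-kB targets, 5 were higher and 4 lower with the block in limma and in edgeR, 6 and 4 in DESeq2 with the block, and 2 were lower in DESeq2 without it. With libraries left out 1 to 11 were higher and 0 to 5 lower, and of the signalling partners 0 to 2 were higher and 0 were lower. The fits with the block that leave out 1 number rest on 4 libraries and 1 residual degree of freedom, and all 3 of them called NFKBIZ.

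The log2 fold change turned to values above 0 for LTB (0.082 in edgeR and 0.049 in DESeq2), for TNFSF13B (0.021 and 0.011) and for TNFSF13 (0.13 and 0.12, and 0.015 and 0.0080 with the block). Leaving out 1 library or 1 number moved 19 members across 0 on the log2 scale, none of them called: NFKBIA from -0.52 to 0.94, NFKB1 from -0.084 to 0.16, RELB from -0.35 to 0.076, LTB from -0.62 to 0.17, TNFSF13 from -0.43 to 0.27, TNFSF13B from -0.19 to 0.25, TNFSF9 from -0.12 to 0.76, TRAF1 from -0.22 to 0.18, TRAF2 from -0.23 to 0.096, TRAF3 from -0.13 to 0.16. The ranges of the rest were TRAF5 from -0.094 to 0.50, TNFRSF11A from -0.12 to 0.35, TNFRSF17 from -0.62 to 0.17, TNFRSF18 from -0.52 to 0.14, TNFRSF4 from -0.60 to 0.20, FAS from -0.13 to 0.71, TNFRSF21 from -0.38 to 0.55, TNFRSF25 from -0.21 to 0.39 and TNFRSF6B from -0.18 to 0.10. The cause was not tested. TMM scaling moved the median change of all genes from -0.0036 to 0.0037. The replicate block in limma changed no call of a member. Genes with few reads, such as TNFRSF11A and LTB, are limited by the depth of Dox+ 3, where 3 reads were worth 6.98 normalized counts.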

Other observations

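The ratio of REL to RELA within each library does not depend on how libraries were scaled. It was chosen after the values of both genes were seen. REL reached 2.48%, 4.29% and 1.87% of the RELA count in Dox- 1, 2 and 3 against 7.31%, 7.61% and 5.30% in Dox+ 1, 2 and 3. The groups did not overlap, which follows from REL being higher and RELA lower in all Dox+ libraries. The means were 2.88% ± 1.26 and 6.74% ± 1.26 (SD, n = 3). A two-sided exact permutation test of the log2 ratios, which did not use the number, gave p = 0.10. It is the smallest p that 3 against 3 libraries allow and was fixed by the choice of genes, so it is no support. The ratio of RELB to RELA was 14.2% ± 1.21 and 18.3% ± 5.59 (exact permutation p = 0.30, n = 3), and that of NFKB2 to NFKB1 was 500% ± 64.9 and 397% ± 110 (exact permutation p = 0.20, n = 3). Of these 3 ratios, 0 could pass a threshold of 0.05 in this design.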
